A study of Mus musculus with 6 samples.

Results

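Long noncoding RNAs are transcripts longer than the classes of small RNA that are not known to encode a protein, and 8 of the best known were followed here in oligodendrocyte lineage cells that lack *Npc1*, the lysosomal protein that moves cholesterol out of the lysosome. They are *Malat1*, *Neat1* and *Miat*, which stay in the nucleus, *Gas5*, *Snhg1*, *Snhg11* and *Snhg12*, which carry small nucleolar RNAs (snoRNAs) in their introns, and *Dleu2*, which carries a pair of microRNAs. Members were chosen by gene name, and each name matched 1 row of the 55492 genes in the deposited table. O4+ cells were compared between 3 WT and 3 *Npc1*-/- mice, both untreated and 16 days old. The *Npc1*-/- mice carried the nih allele of *Npc1* in F1 hybrids of BALB/cJ and C57BL6/J, and the WT mice were their littermates. Each library came from the cells of 1 mouse brain pulled out with microbeads against O4, a surface antigen of late progenitors and immature oligodendrocytes. The cell fraction was enriched and not pure, and the allele is carried by every cell of the animal.

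The 3 kinds of host and structural RNA work in different ways. *Malat1* accumulates in nuclear speckles, bodies rich in splicing factors, and the long form of *Neat1* is the scaffold of paraspeckles, bodies that hold RNA-binding proteins. In a snoRNA host gene the introns are the product that is kept: after splicing they are trimmed to snoRNAs, which guide the chemical modification of ribosomal RNA, while the spliced exons of *Gas5* are exported, engaged by ribosomes and degraded by nonsense-mediated decay. *Dleu2* carries the hairpins of miR-15a and miR-16-1, microRNAs known for restraining the cell cycle.

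Levels are given as scaled TPM, that is, TPM (an abundance per transcript length whose sum is equal in all libraries) divided by a size factor per sample. Size factors ran from 0.727 to 1.295 and were lowest in *Npc1*-/- replicates 2 and 3, where *Mbp* (myelin basic protein) alone took 24.7% and 26.1% of all TPM, against 18.8% to 22.2% in the other 4 samples. The spacing of low FPKM values put the depth between 40600000 and 50100000 fragments per library. *Npc1* itself stood at 41.1, 45.5 and 43.9 scaled TPM in WT and at 3.72, 5.17 and 4.35 in *Npc1*-/- samples. *Xist* stood at 21.4 scaled TPM in *Npc1*-/- replicate 3 and at or below 0.01 in the other 5 samples, so that this mouse was female and the others male. *Olig1*, *Olig2* and *Sox10*, which mark the oligodendrocyte lineage, were present in every sample. The summed markers of microglia, endothelium and neurons did not overlap between the genotypes on scaled TPM. The summed level of 7 microglia markers lay between 183 and 286 scaled TPM in WT and between 86.4 and 157 in *Npc1*-/- samples, and 1 of the 7 was called (*Tmem119*, log2 fold change −1.44, adjusted p = 0.0442, limma). That of 5 endothelial markers lay between 444 and 653 in WT and between 318 and 375 in *Npc1*-/- samples, and that of 12 neuron markers between 122 and 165 in WT and between 192 and 241 in *Npc1*-/- samples. The neuron sums overlapped on TPM as deposited (135 to 211 against 164 to 255), and those of microglia and endothelium did not. The summed level of 7 astrocyte markers overlapped on scaled TPM (667 to 724 in WT and 450.5 to 862 in *Npc1*-/- samples) and was lower in every *Npc1*-/- sample on TPM as deposited. Of the 7, 5 were lower in every *Npc1*-/- sample (*Gja1* and, outside the naming rule and chosen after their values were seen, *Aqp4*, *Aldh1l1*, *Slc1a2* and *Slc1a3*), against 14.2% of all genes tested, *Gfap* was higher in every one and the median log2 fold change was −0.42. No endothelial, astrocyte or oligodendrocyte lineage marker was called, the largest log2 fold changes being −0.997 for *Flt1* and −0.83 for *Pecam1*, 1.01 for *Gfap* and −0.81 for *Gja1*, and 0.74 for *Bcas1* and 0.57 for *Mbp*. None of these markers was at 0 in any sample, and their part in the results below was not tested. Fewer cells of a type and less RNA per cell cannot be told apart in such samples.

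The sequences show what sets the classes apart. A C/D snoRNA is one in which box C (TGATGA) near the 5′ end and box D (CTGA) near the 3′ end hold the proteins of the particle. Both boxes were found in 8 of 10 snoRNA genes inside *Gas5*, 5 of 8 inside *Snhg1*, 1 of 5 inside *Snhg12* and 0 of 2 inside *Snhg11*. Of the 25 snoRNA genes that GENCODE M21 places inside the 4 hosts on their strand, 14 held both boxes (box C within the first 20 bases, box D beginning within the last 14), against 20.1% of all 1507 snoRNA genes, 4 ended in ACANNN, the mark of the H/ACA class, against 18.3%, and 1 of these met both criteria, leaving 8 with neither. In *Snhg12* 3 of 5 ended in ACANNN. These counts are of annotated genes. *Snord80* in *Gas5* and *Snora16a* in *Snhg12* are each listed as 2 genes at almost the same bases, and both were counted. A C/D snoRNA of each of 3 hosts and an H/ACA snoRNA of *Snhg12* are shown on the sense strand, 5′ to 3′ (GENCODE, GRCm38), with the box letters in capitals. *Snord47* lies at chr1:161038082-161038158, *Gm22744* at chr19:8725092-8725156, *Snord99* at chr4:132310691-132310764 and *Snora61* at chr4:132310240-132310369.
Snord47 (in Gas5): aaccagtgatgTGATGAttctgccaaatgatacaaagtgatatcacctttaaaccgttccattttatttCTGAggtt
Gm22744 (in Snhg1): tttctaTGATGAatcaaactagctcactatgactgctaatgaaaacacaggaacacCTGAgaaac
Snord99 (in Snhg12): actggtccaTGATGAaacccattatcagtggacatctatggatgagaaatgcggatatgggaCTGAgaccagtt
Snora61 (in Snhg12): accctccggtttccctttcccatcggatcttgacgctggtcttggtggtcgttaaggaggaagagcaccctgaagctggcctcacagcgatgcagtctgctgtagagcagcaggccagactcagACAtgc

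Many snoRNA host genes begin their transcripts with an unbroken run of C and T, the terminal oligopyrimidine tract that ribosomal protein genes also have. In the RefSeq start windows (GRCm38.p6, 250 bases before and 50 after each annotated start), a run of at least 5 C or T letters that includes the first transcribed base was found on the sense strand for *Gas5* (6 letters, at the second of its 2 starts), *Snhg12* (9 letters) and *Miat* (7 letters). *Snhg1* had 4 letters and *Malat1* 2, and the first base of *Snhg11* and *Dleu2* was neither C nor T. Runs were followed to both sides of the first transcribed base, so each of these lengths includes letters before the start. Such a run is held by 11.8% of the 27025 genes with a window and by 4 of the 13 other snoRNA host genes with one. The limit of 5 was chosen after the windows were seen, and a match is a description, not a site. The 30 bases before and the 40 from the start are shown for the 3 most expressed hosts and for *Malat1*, with runs of at least 5 letters in capitals. They lie at chr1:161035136-161035205 and chr4:132308648-132308717 for *Gas5* and *Snhg12*, and at chr19:8723457-8723526 for *Snhg1*, all on the plus strand, and at chr19:5802633-5802702 on the minus strand for *Malat1*.
Gas5: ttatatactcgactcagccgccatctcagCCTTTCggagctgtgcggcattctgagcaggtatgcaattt
Snhg12: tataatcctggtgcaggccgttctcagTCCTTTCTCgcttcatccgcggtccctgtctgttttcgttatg
Snhg1: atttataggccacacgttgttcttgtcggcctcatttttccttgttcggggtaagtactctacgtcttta
Malat1: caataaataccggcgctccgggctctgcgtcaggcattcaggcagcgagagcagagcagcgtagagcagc

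*Malat1* and the long *Neat1* form do not end in an ordinary poly(A) tail. Their 3′ ends are cut by RNase P and are kept stable by a genomic A-rich stretch that folds back on a pair of U-rich runs as a triple helix. This bears on the levels, because the libraries were made from poly(A) RNA. The last 100 bases of the 20771-base *Neat1* transcript (chr19:5824708-5824807, minus strand) and the matching bases of the 6983-base *Malat1* transcript (chr19:5795962-5796081, minus strand) are shown, written as DNA. Capitals mark the runs of at least 11 letters that both share, of which there are 3.
Malat1: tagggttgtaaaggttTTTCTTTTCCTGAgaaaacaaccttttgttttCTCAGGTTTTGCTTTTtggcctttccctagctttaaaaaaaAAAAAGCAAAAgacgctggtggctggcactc
Neat1: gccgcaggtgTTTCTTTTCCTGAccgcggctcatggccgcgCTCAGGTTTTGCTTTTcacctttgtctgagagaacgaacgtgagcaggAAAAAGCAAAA
The last shared run, which closes *Neat1*, occurred once in *Malat1* and in the longest transcript of 41 (1.04%) of the 3936 lncRNA genes with a longest transcript of at least 2000 bases. In *Malat1* it is followed by the first bases of the tRNA-like piece that is cut off.

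*Miat* is known for copies of TACTAAC, the letters of the branch point that splicing factor SF1 binds. The longest *Miat* transcript (9163 bases) held 6 copies, as many as in no other of the 3936 long lncRNA transcripts, of which 9.38% held any copy. *Neat1* held 1 and the other 6 members none. Bases 4921 to 5092 of that transcript, with 3 of the copies in capitals, are as follows.
Miat: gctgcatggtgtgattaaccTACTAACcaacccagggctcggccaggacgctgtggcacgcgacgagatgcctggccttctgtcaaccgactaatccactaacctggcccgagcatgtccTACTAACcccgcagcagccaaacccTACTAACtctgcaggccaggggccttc
The 5p arms of the pair of microRNAs in *Dleu2* (chr14:61632075-61632096 and chr14:61631936-61631957, minus strand, RefSeq on GRCm38.p6) share their seed, bases 2 to 8, in capitals. Of 1679 mature mouse microRNAs in that table, 10 had this seed.
mmu-miR-15a-5p: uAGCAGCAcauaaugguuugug
mmu-miR-16-5p: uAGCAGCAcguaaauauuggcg

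The mean levels of the 8 RNAs spanned 217-fold, and only some were abundant. *Gas5* (mean over all 6 samples 334 scaled TPM) and *Malat1* (203 scaled TPM) ranked 4 and 6 among 13125 lncRNA genes in the table and 227 and 392 among the 15245 genes tested. *Snhg12* (32.2), *Neat1* (27.1) and *Snhg1* (16.7 scaled TPM) were intermediate, at ranks 29, 32 and 45 of the lncRNA genes. *Miat* (4.27), *Dleu2* (2.95) and *Snhg11* (1.54 scaled TPM) were low, with ranks of 9606, 10845 and 12606 among the genes tested, and were not abundant in these cells. *Snhg11* is also the only member that GENCODE M21 lists as protein coding. In this order *Gas5* exceeded *Malat1* in 4 of 6 samples, *Snhg12* exceeded *Neat1* in 3 of 6 and *Miat* exceeded *Dleu2* in 4 of 6. *Dleu2* exceeded *Snhg11* in 5 of 6. The order of these neighbours thus did not hold in every sample, while each of the other 3 steps held in 6 of 6. Differences in level between members were not tested. *Malat1*, which is usually the most abundant nuclear lncRNA, stood below *Gas5* in every *Npc1*-/- sample and in WT replicate 1. All 8 together made up 0.037% to 0.0737% of TPM.

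**Figure D1:**
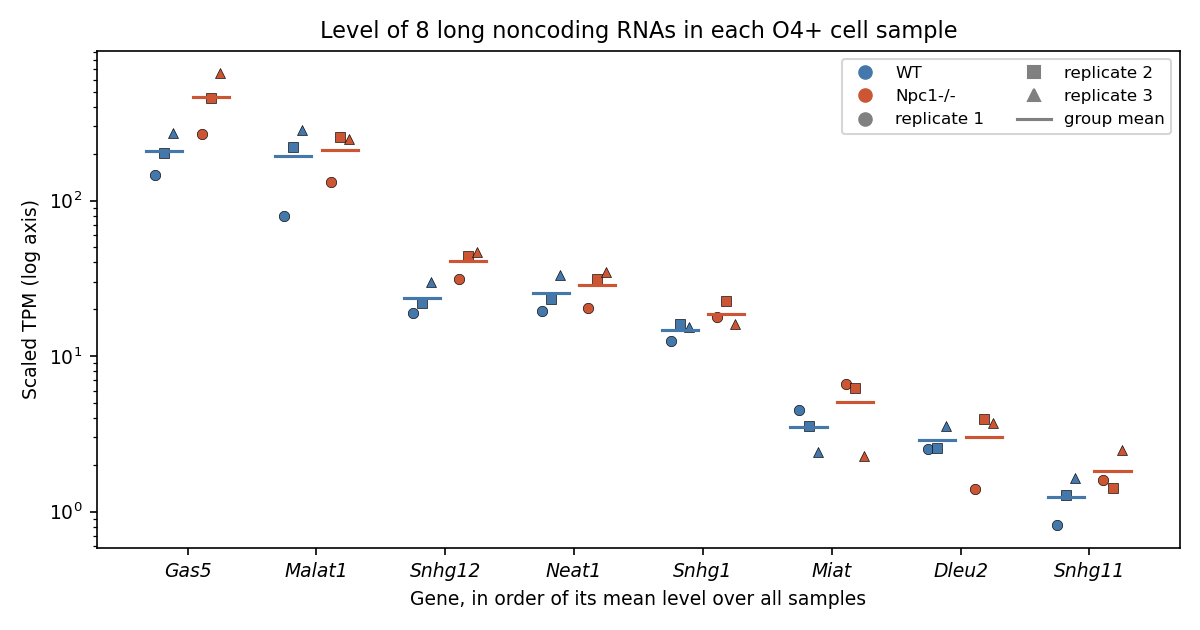
Scaled TPM (vertical log axis) of the 8 long noncoding RNAs, ordered by mean level, in the 3 WT (blue) and 3 *Npc1*-/- (red) samples, with a symbol for each replicate number and a bar at each group mean. *Gas5* and *Malat1* lie near or above 100, *Miat*, *Dleu2* and *Snhg11* below 10, and the genotypes are apart for *Snhg12* and *Snhg1*.

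All 8 members passed the filter on low values, and none was called between the genotypes (0 of 8, limma with Benjamini-Hochberg adjustment over 15245 genes, adjusted p below 0.05 and absolute log2 fold change of at least 0.1), where 0.813% of all genes tested did. At an unadjusted p below 0.05 there were 2 (*Gas5* and *Snhg12*), against 22.2% of all genes tested. 7 of the 8 log2 fold changes were positive, with a median of 0.37 against 0.01 over all genes tested. In 2 of 8 (*Snhg12* and *Snhg1*) all 3 *Npc1*-/- samples lay above all 3 WT samples, which was the case for 13.3% of all genes tested. Scaling mattered: on TPM as deposited the median of all genes tested was −0.33 and 4 of the 8 were positive. Relative to that shift the member values differed little from those on scaled TPM, at 1.06 for *Gas5* and 0.74 for *Snhg12*. They could hardly differ, since the size factor of a sample is the same for all genes. Scaling thus moves all log2 fold changes by nearly the same amount, and this likeness is no separate test of the members.

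*Gas5*, the most abundant member and host of the most snoRNAs, had the largest difference. Its gene lies at chr1:161034422-161038539 on the plus strand, with 25 annotated transcripts. Scaled TPM was 147, 202 and 273 in WT and 269, 455 and 658 in *Npc1*-/- samples. The groups overlapped by a narrow margin, since the highest WT sample exceeded the lowest *Npc1*-/- sample, and replicate 1 was lowest and replicate 3 highest in both genotypes. The means were 207 ± 63.1 and 461 ± 194 (SD, n = 3 each), and the log2 fold change was 1.10 ± 0.35 (SE), a 2.15-fold higher level with a 95% confidence interval from 1.22 to 3.80. The adjusted p was 0.125 (limma), and the exact two-sided permutation p was 0.2, where 3 samples against 3 can give no less than 0.1. TPM as deposited was 190, 223 and 283 for WT mice against 297, 389 and 478 for *Npc1*-/- mice, which did not overlap, with a log2 fold change of 0.73 and an adjusted p of 0.0526. Without the female *Npc1*-/- replicate 3 the log2 fold change of *Gas5* was 0.80 (adjusted p = 0.212, limma).

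*Snhg12* (chr4:132308623-132311024, plus strand) is the host of both C/D and H/ACA snoRNAs. It stood at 18.9, 21.9 and 29.8 scaled TPM in WT and at 31.4, 44.1 and 47.0 in *Npc1*-/- samples. The groups did not overlap, on scaled TPM or on TPM as deposited. The log2 fold change was 0.78 ± 0.21 (SE), or 1.72-fold with an interval from 1.23 to 2.42, at an adjusted p of 0.0892 (limma) and an exact permutation p of 0.1, the smallest possible. Without *Npc1*-/- replicate 3 it was 0.67.

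*Snhg1* (chr19:8723475-8726443, plus strand) stood at 12.5, 16.0 and 15.4 scaled TPM in WT and at 17.9, 22.5 and 16.0 in *Npc1*-/- samples. The lowest *Npc1*-/- sample lay barely above the highest WT sample (16.01 against 15.98). Its log2 fold change was 0.34 ± 0.15 (SE, adjusted p = 0.240, limma), and −0.02 on TPM as deposited, where the groups overlapped. *Snhg11* (chr2:158375638-158386145, plus strand), known as a transcript of neurons, stood at 0.818, 1.27 and 1.65 scaled TPM in WT and at 1.61, 1.43 and 2.48 in *Npc1*-/- samples. The groups overlapped and the log2 fold change was 0.42 ± 0.25 (SE, adjusted p = 0.373, limma). If its median transcript is taken as the length, 36 to 70 fragments per library lie behind these values, and 180 to 360 with its longest transcript. Of the 12 neuron markers 11 had positive log2 fold changes and 2 were called (*Nefl* and *Nefm*, neurofilament subunits, log2 fold changes 1.22 and 1.11, adjusted p = 0.0185 and 0.0134, limma). On TPM as deposited 5 of the 12 were positive, with a median of −0.04, and *Nefm* was not called (adjusted p = 0.0777), and without *Npc1*-/- replicate 3 there were 7 positive.

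The hosts can also be set against one another within a sample. The ratio of *Gas5* to *Snhg1*, which no size factor touches, was 11.7, 12.6 and 17.7 in WT and 15.1, 20.3 and 41.1 in *Npc1*-/- samples, and that of *Gas5* to *Snhg12* was 7.77, 9.21 and 9.14 in WT and 8.58, 10.3 and 14 in *Npc1*-/- samples. Both ratios overlapped between the genotypes and were highest in *Npc1*-/- replicate 3. The ratio of *Gas5* to *Malat1* was 1.84, 0.912 and 0.965 in WT and 2.05, 1.79 and 2.63 in *Npc1*-/- samples, with WT replicate 1, where *Malat1* was lowest, above *Npc1*-/- replicate 2.

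The differences of the nuclear RNAs were within the spread between mice. *Malat1* (chr19:5795690-5802672, minus strand) stood at 79.8, 221 and 283 scaled TPM in WT and at 131, 255 and 250 in *Npc1*-/- samples. Replicate 1 was lowest in both genotypes, and WT values alone spanned 3.54-fold. Its log2 fold change was 0.25 with an interval from −0.89 to 1.39 (adjusted p = 0.818, limma), and it turned to −0.30 without WT replicate 1. *Neat1* (chr19:5824708-5845478, minus strand, next to *Malat1*) stood at 19.4, 23.2 and 33.4 scaled TPM in WT and at 20.3, 31.2 and 34.8 in *Npc1*-/- samples, almost the same range. Its log2 fold change was 0.18, with an interval from −0.42 to 0.78 (adjusted p = 0.733, limma). *Miat* (chr5:112213228-112229395, minus strand) stood at 4.50, 3.56 and 2.43 scaled TPM in WT and at 6.59, 6.28 and 2.27 in *Npc1*-/- samples. *Npc1*-/- replicates 1 and 2 lay above all WT samples and replicate 3 below them. The log2 fold change was 0.39, with an interval from −0.51 to 1.29 (adjusted p = 0.614, limma), and was 0.83 (adjusted p = 0.112) without that female sample. As folds, the intervals reached from 0.539 to 2.61 for *Malat1*, from 0.750 to 1.72 for *Neat1* and from 0.701 to 2.45 for *Miat*, which does not show the genotypes to be alike.

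*Dleu2* (chr14:61602839-61682373, minus strand) stood at 2.54, 2.57 and 3.54 scaled TPM in WT and at 1.39, 3.94 and 3.72 in *Npc1*-/- samples. *Npc1*-/- replicate 1 was the lowest and the other *Npc1*-/- samples the highest of all 6. Its log2 fold change was −0.03, with an interval from −0.81 to 0.75 (adjusted p = 0.968, limma), and its sign depended on the setting. About 25 to 62 fragments per library lie behind its values if its median transcript is taken as the length, and 180 to 440 with its longest.

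**Figure D2:**
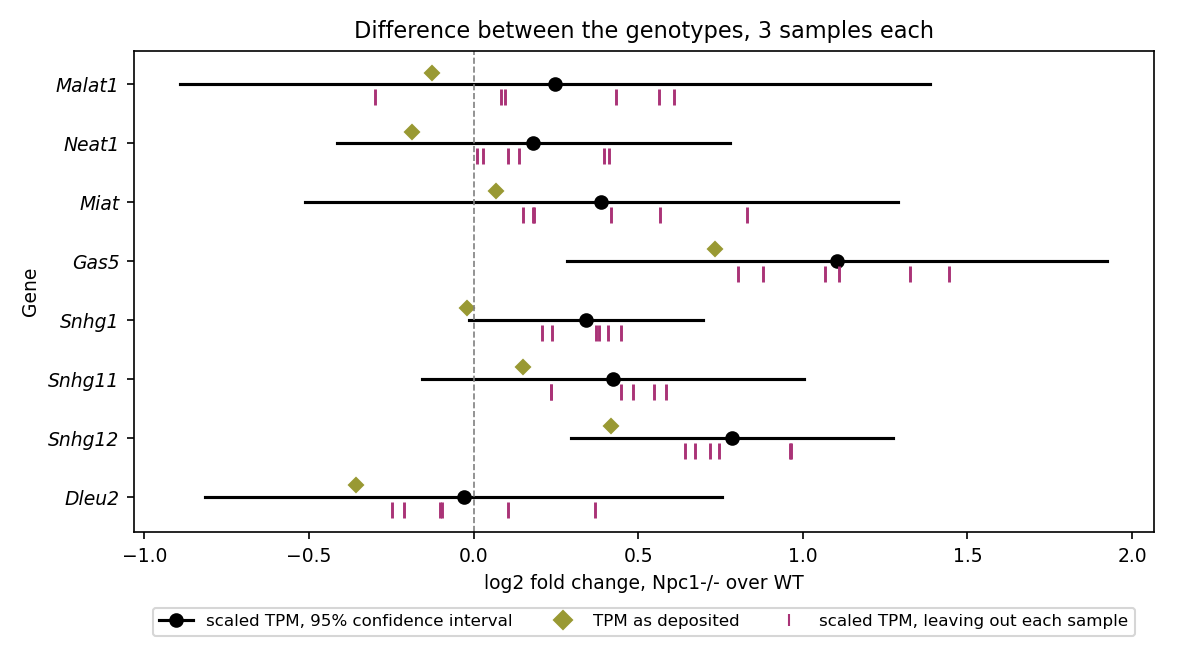
Horizontal axis, log2 fold change of *Npc1*-/- over WT for each of the 8 genes, 3 samples per genotype: black points and lines give scaled TPM with the 95% confidence interval, diamonds TPM as deposited, and purple ticks scaled TPM leaving out each sample in turn. The intervals of *Gas5* and *Snhg12* lie above 0, and *Malat1*, *Neat1*, *Snhg1* and *Dleu2* fall below 0 on TPM as deposited.

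The products of the hosts could not be read from these files. All 27 snoRNA and microRNA genes inside the members (10 in *Gas5*, 8 in *Snhg1*, 5 in *Snhg12*, 2 in *Snhg11* and 2 in *Dleu2*) were listed at 0 in all 6 samples, *Snord47*, *Snord99*, *Mir15a* and *Mir16-1* among them. This held for every gene of their size: of 5943 genes whose longest transcript has at most 150 bases, 0 had a value above 0 in any sample, against 31.6% of the genes with a longest transcript of more than 350 and up to 1000 bases. Low values fitted transcript lengths reduced by a fragment length of 240 or 250 bases, more than the length of any of these small RNAs, and a value of 0 therefore says nothing about their level.

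The other snoRNA host genes were described by the same fit. Of 16 on a list of hosts, 14 were tested, and *Snhg9* was listed at 0 in all samples. 13 of the 14 had positive log2 fold changes, with a median of 0.61 against 0.01 over all genes tested, and in 8 of 14 all *Npc1*-/- samples lay above all WT samples (13.3% of all genes). On TPM as deposited these were 11 of 14 positive, a median of 0.31 against −0.33 over all genes tested, and 5 of 14 not overlapping, against 2.58% of all genes. *Snhg6* was the 1 gene called, at 39.9, 49.0 and 49.97 scaled TPM in WT and at 72.7, 87.3 and 79.2 in *Npc1*-/- samples. The groups were far apart, with a log2 fold change of 0.78 ± 0.12 (SE, adjusted p = 0.0443, limma). The call was lost on TPM as deposited (0.41, adjusted p = 0.185, limma) and when any sample but *Npc1*-/- replicate 3 was left out. It was also lost with no filter on low values (adjusted p = 0.104) and without the trend (adjusted p = 0.0718, limma). *Zfas1*, with the largest value (0.86, adjusted p = 0.162), stood at 21.3, 26.5 and 36.4 scaled TPM in WT and at 32.0, 55.1 and 71.3 in *Npc1*-/- samples, overlapping like *Gas5* through replicates 3 and 1. *Snhg18*, outside the naming rule and chosen after its values were seen, was the 1 host below 0 (−0.49, adjusted p = 0.162).

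**Figure D3:**
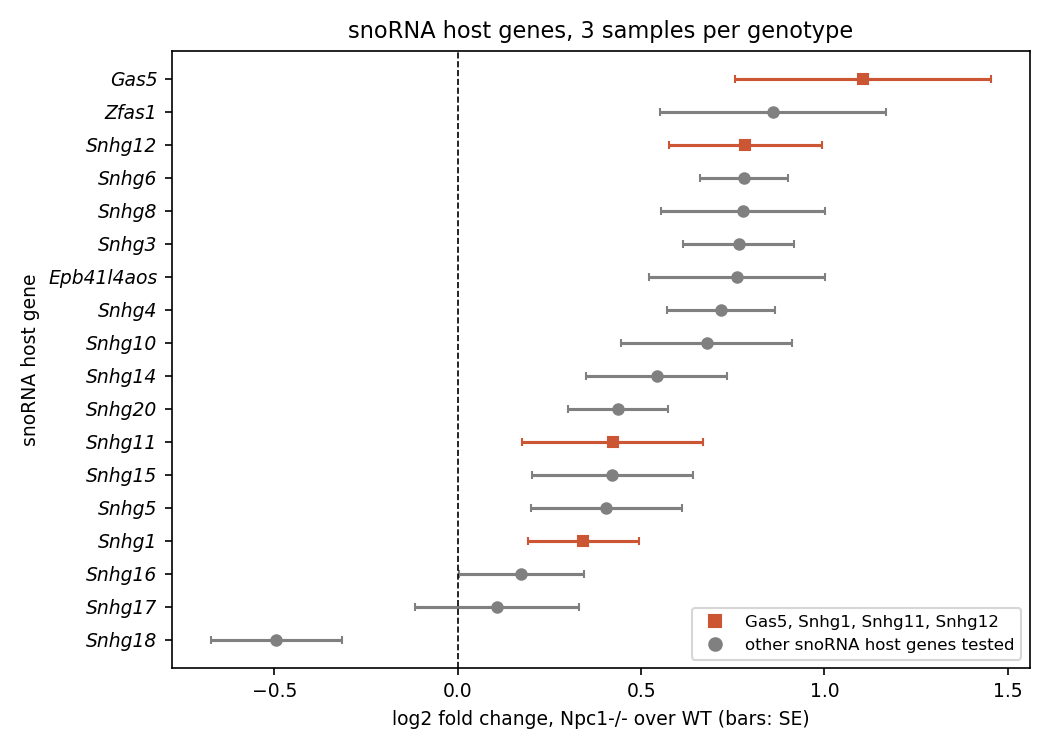
log2 fold change of *Npc1*-/- over WT (horizontal axis, bars SE, 3 samples per genotype) of the 4 snoRNA hosts followed here (red squares) and 14 other snoRNA host genes (grey). 17 of the 18 lie above 0, from 0.11 to 1.10, and *Snhg18* lies at −0.49.

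Proteins that work with these RNAs were taken by role. Of 11 proteins of the snoRNA particles and their assembly, 0 were called with limma, 8 were positive (median 0.17) and 3 did not overlap between the genotypes, all higher in *Npc1*-/-, as were 13.3% of all genes tested. *Fbl* (fibrillarin, the methylase of C/D particles) stood at 42.4, 45.7 and 40.3 scaled TPM in WT and at 56.2, 63.1 and 60.7 in *Npc1*-/- samples (log2 fold change 0.48, adjusted p = 0.0547). *Znhit6*, an assembly factor of C/D particles, stood at 7.71, 9.14 and 5.85 in WT and at 12.5, 13.7 and 15.2 in *Npc1*-/- samples (0.84, adjusted p = 0.0567). The other was *Nop10* of the H/ACA particle, named after its values were seen (0.46, adjusted p = 0.0567). On TPM as deposited 3 of the 11 were positive and 1 did not overlap, against 2.58% of all genes.

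Among 14 paraspeckle proteins 0 were called, 11 were positive and the median was 0.08, with *Taf15* (0.50, adjusted p = 0.189) and *Hnrnph3* (0.44, adjusted p = 0.253) largest, and 2 of 14 were positive on TPM as deposited. Among 19 nuclear speckle proteins 0 were called and the median was 0.07, with *U2af1* (0.27) and *Clk4* (0.26) largest, both below 0 on TPM as deposited. Of 10 factors of nonsense-mediated decay 0 were called and the median was 0.01. *Upf3a* was largest among them, at 24.2, 27.4 and 30.1 scaled TPM in WT and at 30.1, 39.7 and 55.7 in *Npc1*-/- samples (0.57, adjusted p = 0.177), and *Upf3b* followed at 0.18. Of 19 other lncRNAs tested 0 were called (median 0.12). *Pvt1*, a host of microRNAs next to *Myc*, stood at 1.34, 1.12 and 1.94 scaled TPM in WT and at 2.81, 3.25 and 4.93 in *Npc1*-/- samples, without overlap (1.07, adjusted p = 0.0651, limma). *Rian* was at 0.45 (adjusted p = 0.162, limma), and its groups overlapped. It is an imprinted snoRNA host that was placed among these lncRNAs and is not in the counts of other hosts above. Of all 885 lncRNA genes tested 7 (0.791%) were called, nearly the share of all genes tested (0.813%). All 7 were higher in *Npc1*-/-, as were 61 of the 124 genes called in all. The median was 0.14 against 0.01 over all genes tested.

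For 5 members a gene starts within 5 kb on the other strand. *Slc3a2*, the heavy chain of amino acid transporters, starts 106 bases from *Snhg1*. It stood at 125, 93.2 and 105 scaled TPM in WT and at 75.0, 78.2 and 81.1 in *Npc1*-/- samples, all below WT (log2 fold change −0.45 ± 0.12, SE, adjusted p = 0.0875, limma). Within a sample the ratio of *Snhg1* to *Slc3a2* was 0.101, 0.171 and 0.146 in WT and 0.238, 0.287 and 0.197 in *Npc1*-/- samples. It could not overlap, since *Snhg1* was higher and *Slc3a2* lower in every *Npc1*-/- sample, and it adds nothing to their values. *Zbtb37*, which starts 427 bases from *Gas5* and overlaps it, lay between 0.696 and 1.33 scaled TPM in all samples (0.27, adjusted p = 0.440). The ratio of *Gas5* to *Zbtb37* was 163, 290 and 345 in WT and 275, 342 and 735 in *Npc1*-/- samples, which overlapped. *Gm37376* starts 731 bases from *Malat1* and overlaps it by 453 bases, with a log2 fold change of 0.59 (adjusted p = 0.405), and *Frmd8os* and *Gm37820*, near *Neat1* and *Dleu2*, were at or below 0.24 TPM. Whether reads were assigned by strand is not given, so values of overlapping pairs may share reads. *Dleu2* overlaps *Trim13* on the other strand by 3108 bases. *Trim13*, named after its values were seen, stood at 10.95, 12.1 and 10.7 scaled TPM in WT and at 14.2, 14.6 and 12.7 in *Npc1*-/- samples, above *Dleu2* in each (log2 fold change 0.29, adjusted p = 0.147, limma).

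The profiles nearest to *Gas5* and *Snhg12* over the 6 samples were found among 9149 other genes (mean TPM 5 or more), by the root mean square difference of centred log2 values. For *Gas5* they were *Trim41* (0.099), *5730409E04Rik* (0.0996) and *Zcchc24* (0.102). For *Snhg12* they were *Appl2* (0.0517), the snoRNA host *Snhg8* (0.0605) and *Rnf7* (0.0779). None of the 6 was called with limma (adjusted p from 0.0668 for *Rnf7* to 0.176 for *5730409E04Rik*). *Snhg8* stood at 56.4, 64.5 and 85.0 scaled TPM in WT and at 86.8, 123.2 and 147 in *Npc1*-/- samples. In both genotypes replicate 1 was lowest and replicate 3 highest on scaled TPM, as for *Snhg12*. On TPM as deposited replicate 2 was the lowest WT sample for both genes (71.3 for *Snhg8* and 24.2 for *Snhg12*). For *Snhg12* replicate 3 was then the lowest *Npc1*-/- sample (34.1). A like order on scaled TPM goes with the choice of *Snhg8* by profile. *Gas5* and *Zfas1* had the same order, also on TPM as deposited.

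**Figure D4:**
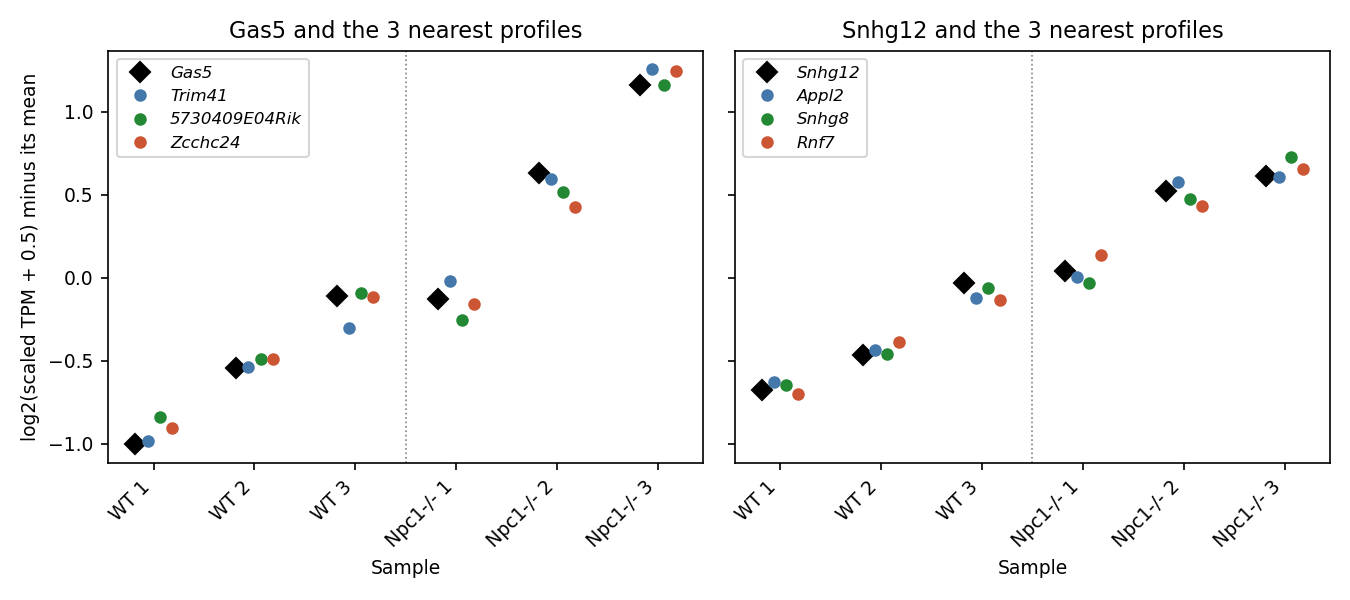
Vertical axis, log2(scaled TPM + 0.5) minus the gene's mean over 6 samples; horizontal axis, the 3 WT and 3 *Npc1*-/- samples, split by a dotted line. *Gas5* (left) and *Snhg12* (right) are black diamonds and their 3 nearest genes coloured points, which lie close to them in every sample.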

How the data were processed

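Poly(A) RNA of O4+ cells from 3 WT and 3 *Npc1*-/- brains was sequenced as paired ends, 1 library per mouse. The authors describe trimming with bbduk, STAR on GRCm38 and featureCounts, while the submitters' processing notes name cutadapt 2.3, FastQC 0.11.8, STAR 2.7.8a, RSEM 1.3.3 and MultiQC 1.7, and the strand setting is not given in the sources used here. The deposited values are TPM and FPKM for 55492 genes, to 2 decimals, made by the authors, and no value column was without a sample. TPM was divided by median-of-ratios size factors, 0.5 was added and log2 taken. A mean TPM of 0.5 or more over the samples left 15245 genes, which entered limma 3.58.1 (R 4.3.3, eBayes with trend, genotype only, two-sided, Benjamini-Hochberg), since the authors' test on counts could not be run on TPM, and their thresholds were kept. Python 3.11.15, numpy 2.4.6, scipy 1.17.1, pandas 2.3.3 and matplotlib 3.10.9 served for annotation, permutation tests and plots. Of the identifiers, 55227 were found in GENCODE M21 (GRCm38). The depth was read from low FPKM values of genes with 1 transcript. The fit was tested on simulated data: in the comparison of genotypes, 62% of 100 genes with a true log2 change of 1 were called and 86% of 100 with a change of 2, among 15245 genes. Of the genes left unchanged 7 were called. The simulated noise was independent between samples, with no part shared by same-numbered samples, so these rates hold for such noise only.

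The members and lists were chosen with earlier results of these data known. The text names the 8 members, the called genes and the 2 largest fold changes of each list, the nearest opposite-strand start within 5 kb, small RNA genes inside members and the 3 nearest profiles of the members called (or, with none called, of the 2 with the largest change). Alternatives were TPM as deposited, FPKM, quantile normalization, pseudocounts of 0.1 and 1, no filter or a minimum mean TPM of 5, no trend, a replicate block, a curve on transcript length (span 0.3) with and without that block, and each sample left out. A curve on the longest transcript was added after seeing the data.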

Additional observations from a re-analysis of the deposited data

How the results depend on the processing

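The count of members called (0 of 8) was also 0 in 16 of 18 alternatives. At a mean TPM of at least 5, *Miat*, *Dleu2* and *Snhg11* were not among the genes tested. The count was 2 with the replicate block, with or without the length curve (*Gas5*, adjusted p = 0.0127, and *Snhg12*, 0.0165, limma with the block). Same-numbered WT and *Npc1*-/- samples correlated at r = 0.414, 0.0602 and 0.326 in their deviations from the genotype means. Each sample correlated best with its own number, a hint from the data and not the design, so that the numbers were not taken as pairs. The block raised the genes called from 124 (61 higher) to 2011, or 1827 with the length curve, and the listed genes called from 4 to 31 and 29. The genes called were 924 on TPM as deposited (54 higher), 225 with quantile normalization, 21 without a filter, 447 at a mean TPM of at least 5, 42 without the trend, and 5 (without *Npc1*-/- replicate 2) to 488 (without *Npc1*-/- replicate 3) leaving out 1 sample. The listed genes called were 15, 7, 1, 15 and 2 in the same settings, and 0 to 9 leaving out 1 sample. Members without overlap numbered 2, but 1 with quantile normalization or the length curve, also with the block. Leaving out 1 sample gave 2 to 4 (4 without WT replicate 3 or *Npc1*-/- replicate 1). All were higher in *Npc1*-/- samples. So were 13.3% of all genes tested on scaled TPM, with quantile normalization and with the length curve. That share was 20.5% without *Npc1*-/- replicate 3 (3 members) and 16.7% without WT replicate 1 (2 members). For the other samples left out, the 2 settings with 4 members among them, the share is not given. Those counts can therefore not be read against all genes. On TPM as deposited it was 2.58%, and the 2 members were *Gas5* and *Snhg12*, not *Snhg12* and *Snhg1*.

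On TPM as deposited the sign turned for *Malat1* (−0.13), *Neat1* (−0.19), *Snhg1* (−0.0192), *Clk4* (−0.10), *U2af1* (−0.10) and *Upf3b* (−0.18). *Malat1* also turned without WT replicate 1 (−0.30), and *Dleu2* with quantile normalization (0.0192), on the longest transcript (0.0034), without WT replicate 3 (0.10) and without *Npc1*-/- replicate 1 (0.37). Leaving out 1 sample, *Malat1* ranged from −0.30 to 0.61 and *Dleu2* from −0.25 to 0.37. The cause was not tested. *Gas5* ranged from 0.73 to 1.44 and *Snhg12* from 0.42 to 0.96, always positive in the 18 alternatives. With 3 mice per genotype, limits are set by the spread between mice, and the fragments behind *Snhg11*, *Dleu2* and *Miat* depend on the transcript taken (for *Miat* 30 to 110 with the median and 530 to 2000 with the longest).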
